A study of Mus musculus with 21 samples.

Results

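The genes described here are the laminin chains, nidogens and perlecan of the basement membrane: Lama1, Lama2, Lama4, Lama5, Lamb1, Lamb2, Lamc1, Nid1, Nid2 and Hspg2. They were taken by symbol from the count tables, and all 10 were found among the 48321 symbols listed. The data are RNA-seq counts from 21 samples of embryoid bodies, the floating aggregates in which mouse embryonic stem cells differentiate, in 7 groups of 3. Every line was built on A2loxCre embryonic stem cells, labelled strain C57BL/6, in which a doxycycline-inducible locus takes up a transgene. All samples were taken after 3 days of differentiation, with doxycycline given for the last 16 hours in the induced groups. The parental A2loxCre line carries no TWIST1 construct and was given doxycycline, so it controls for the drug and not for the integration.

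The Twist1 monomer line was sampled both without and with doxycycline. The parental line was sampled only with it, so the uninduced monomer line differs from the parental line in drug as well as line. For the same reason, induction of TWIST1 and the drug itself cannot be told apart within the monomer line. The other 4 lines carry a construct labelled Twist1 homodimer, Twist1-Tcf3 dimer, Twist1-Tcf4 dimer or Twist1-Tcf12 dimer, and each was sampled with doxycycline only. For these 4 lines the integrated line and its induction therefore cannot be told apart, and the labels do not say how many clones stand behind a line. Nothing in the labels says whether the 3 samples of a group came from separate cultures. P-values then measure only the spread between these samples, which may be technical.

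Laminins are secreted trimers of 1 alpha, 1 beta and 1 gamma chain that polymerise into the sheet on which a basement membrane is built. Lama1, Lamb1 and Lamc1 encode the chains of laminin-111, the laminin of the earliest embryonic basement membranes, much of which is secreted by the endoderm that surrounds the epiblast. Lama5 replaces Lama1 in laminin-511, Lama2 and Lama4 encode the alpha chains of muscle and vessel basement membranes, and Lamb2 is an alternative beta chain. Nidogen-1 and nidogen-2, from Nid1 and Nid2, bind the laminin gamma 1 chain and link it to collagen IV. Perlecan, from Hspg2, is a heparan sulfate proteoglycan of the same membrane. TWIST1 belongs to the basic helix-loop-helix transcription factors, which bind DNA in pairs, and its partner can be a second TWIST1 or an E protein: TCF3, TCF4 or TCF12.

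Library totals lay between 6648842 and 15999693 counts. Levels are given as CPM, the usual unit of counts relative to library size, on TMM-scaled library sizes. A count of 3, the least that was treated as detectable, was worth 0.188 to 0.451 CPM on the library totals before TMM scaling. This floor covers counting error only. Twist1 was at 585 to 647 CPM in the induced monomer line, 166 to 199 CPM in the homodimer line, 36.1 to 56.6 CPM in the other dimer lines, and 4.39 to 8.94 CPM in the parental and uninduced monomer lines. Tcf4 was raised in the line labelled for it, at 305 to 349 CPM against 31.2 to 58.2 CPM elsewhere. Tcf3 in the libraries labelled TCF3 dimer, 151 to 159 CPM, was below the parental 162 to 173 CPM, so a rise of Tcf3 was not seen there. Whether reads from the construct count towards Tcf3 is not known, so this does not settle the label. Tcf12 in the libraries labelled TCF12 dimer spanned 53.2 to 118 CPM and overlapped the parental 62.9 to 68.9 CPM. Both groups are called by their labels below. Sample 1 of the TCF12-labelled libraries stands apart. Its deviation from the mean of the other samples of its group ran against transcript length (Spearman rho -0.635 across genes). The values were -0.285 to 0.318 in samples of the other groups. They were 0.548 and 0.596 in TCF12 samples 2 and 3, each set against a mean that holds sample 1. The common biological coefficient of variation fell from 0.12 to 0.0539 without sample 1. Counts of genes are therefore given with and without this sample. The 3 TCF12-labelled tables also keep 25 gene symbols that the other 18 tables had turned into calendar dates, and that difference in handling and the group cannot be told apart.

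Promoter sequence is shown for 3 members whose levels followed different courses over the lines. Lamb1 is shown for the laminin-111 chains, Nid1 because it rose on induction of the monomer, and Lama5 because it was lower than in the parental line. The sequences are from RefSeq (GRCm38.p6), written 5′ to 3′ on the gene's strand, and end at the base before the gene's start in GENCODE M21. Bases inside a transcript are left out, so the Lamb1 stretch holds 191 bases and 1 of the 2 E-boxes of its 250-base window, the Nid1 stretch 199 bases and the Lama5 stretch 250. Capitals mark every E-box, CANNTG, the sequence class that basic helix-loop-helix dimers bind. Both strands were searched.
Lamb1: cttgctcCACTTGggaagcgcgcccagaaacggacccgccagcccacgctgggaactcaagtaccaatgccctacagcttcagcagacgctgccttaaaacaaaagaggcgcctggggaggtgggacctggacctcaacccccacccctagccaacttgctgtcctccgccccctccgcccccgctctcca
Nid1: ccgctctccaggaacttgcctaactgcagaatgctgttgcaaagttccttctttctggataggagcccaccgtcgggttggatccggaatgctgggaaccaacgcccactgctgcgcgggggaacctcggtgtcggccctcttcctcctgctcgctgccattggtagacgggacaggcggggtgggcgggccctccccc
Lama5: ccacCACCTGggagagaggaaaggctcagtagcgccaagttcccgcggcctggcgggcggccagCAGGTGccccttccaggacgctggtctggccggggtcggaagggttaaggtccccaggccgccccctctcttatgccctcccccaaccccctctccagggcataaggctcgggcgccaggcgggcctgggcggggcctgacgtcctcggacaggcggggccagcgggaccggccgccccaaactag
The stretches are chr12:31265043-31265233 (plus strand) for Lamb1, chr13:13437352-13437550 (plus strand) for Nid1 and chr2:180225860-180226109 (minus strand) for Lama5. Promoters of 6 members matched the RefSeq table. Motifs were counted in the 250 bases before the RefSeq start, a window that for Lama2 lies wholly inside the GENCODE gene. In this window, Lama5 and Lamb1 held 2 E-boxes each, Lama2 and Lamb2 held 1 each, and Nid1 and Hspg2 held 0. Of all 32841 promoters, 66.2% held at least 1 in the same window. The form CATNTG, a subset of the E-boxes, was in 1 copy in Lama2, Lamb1 and Lamb2 and in 35.0% of all promoters. GATAA, the core bound by GATA factors, was found in 1 copy in Lama2 alone among the 6 and in 22.6% of all promoters. The GC box GGGCGG was in 5 copies in Hspg2, 4 in Lama5, 2 in Lamb1 and 1 in Nid1, and in 32.7% of all promoters. A match is a description of these letters and not a binding site.

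The 3 chains of laminin-111 were at their highest in the monomer line, with or without doxycycline, and next highest in the TCF3-labelled libraries. Lama1, the alpha 1 chain (ENSMUSG00000032796, chr17:67697259-67822647, plus strand, GRCm38), stood at 130.4, 127 and 139 CPM in the 3 parental samples. It was at 569.6, 660.1 and 598 CPM in the uninduced monomer line and at 603, 621 and 669.7 CPM in the induced one. In the TCF3-labelled libraries it was at 383, 511 and 491 CPM. These 9 samples all lay above the other 12. Lama1 was at 125, 134 and 142 CPM in the TCF4 dimer samples, 86.25, 138 and 156 CPM in the TCF12-labelled libraries and 94.8, 99.9 and 93.0 CPM in the homodimer line. The first of these overlapped the parental samples, the second spread around them, and the homodimer samples lay below them. Against the parental line, the log2 fold change was 2.21 ± 0.15 (SE) in the uninduced monomer line (edgeR adjusted p = 6.3e-09), 2.26 ± 0.15 in the induced one (edgeR adjusted p = 3.87e-09) and 1.80 ± 0.15 in the TCF3-labelled libraries (edgeR adjusted p = 3.67e-08). The homodimer difference of -0.46 ± 0.15 did not pass with all samples (edgeR adjusted p = 0.0628) and passed without TCF12 sample 1 (edgeR adjusted p = 7.33e-05).

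Lamb1, the beta 1 chain (chr12:31265234-31329644, plus strand), was high in the same 3 groups. It was at 232, 237 and 248 CPM in the parental samples, 459, 513 and 481 CPM in the uninduced monomer line, 481, 498 and 527 CPM in the induced one and 389.5, 425 and 418 CPM in the TCF3-labelled libraries. It was at 198, 199 and 204 CPM in the TCF4 dimer samples, 159.9, 195 and 209.5 CPM in the TCF12-labelled libraries and 181, 169 and 175 CPM in the homodimer line. Each of these last 9 samples was below every parental sample. The rises were 1.02 ± 0.08, 1.07 ± 0.08 and 0.78 ± 0.08 on the log2 scale (edgeR adjusted p = 3.15e-08, 1.43e-08 and 5.25e-07). The falls were small: -0.45 ± 0.08 in the homodimer line (edgeR adjusted p = 0.000904), -0.35 ± 0.08 in the TCF12-labelled libraries (edgeR adjusted p = 0.00399) and -0.26 ± 0.08 in the TCF4 dimer line (edgeR adjusted p = 0.0428). The last is near the threshold: it no longer passed when any 1 of 13 libraries was left out, with edgeR adjusted p up to 0.152 without parental sample 3. Without TCF12 sample 1, the difference in the TCF12-labelled libraries was -0.25 (edgeR adjusted p = 0.00131).

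Lamc1, the gamma 1 chain shared by all the laminins of this set (chr1:153218922-153332786, minus strand), was at 292, 314 and 323 CPM in the parental line. It rose to 675, 753 and 721 CPM in the uninduced monomer line, 714, 738 and 780.1 CPM in the induced one and 499.7, 618 and 588 CPM in the TCF3-labelled libraries. The homodimer line had 230.1, 223 and 204 CPM, the TCF4 dimer line 198, 201 and 199 CPM and the TCF12-labelled libraries 68.9, 172 and 212 CPM, all below the parental samples. Sample 1 of the last group, at 68.9 CPM, was the lowest of the 21. The log2 fold changes of the 3 groups above the parental line were 1.21 ± 0.23, 1.26 ± 0.23 and 0.88 ± 0.23 (edgeR adjusted p = 0.000769, 0.000463 and 0.00658). Of the 3 groups below it, only the TCF12-labelled libraries passed with all samples, at -1.03 ± 0.23 (edgeR adjusted p = 0.00269). All 3 passed without TCF12 sample 1: -0.50 in the homodimer line (edgeR adjusted p = 2e-06), -0.64 in the TCF4 dimer samples (edgeR adjusted p = 1.48e-08) and -0.69 in the TCF12-labelled libraries (edgeR adjusted p = 2.82e-08).

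**Figure D1:**
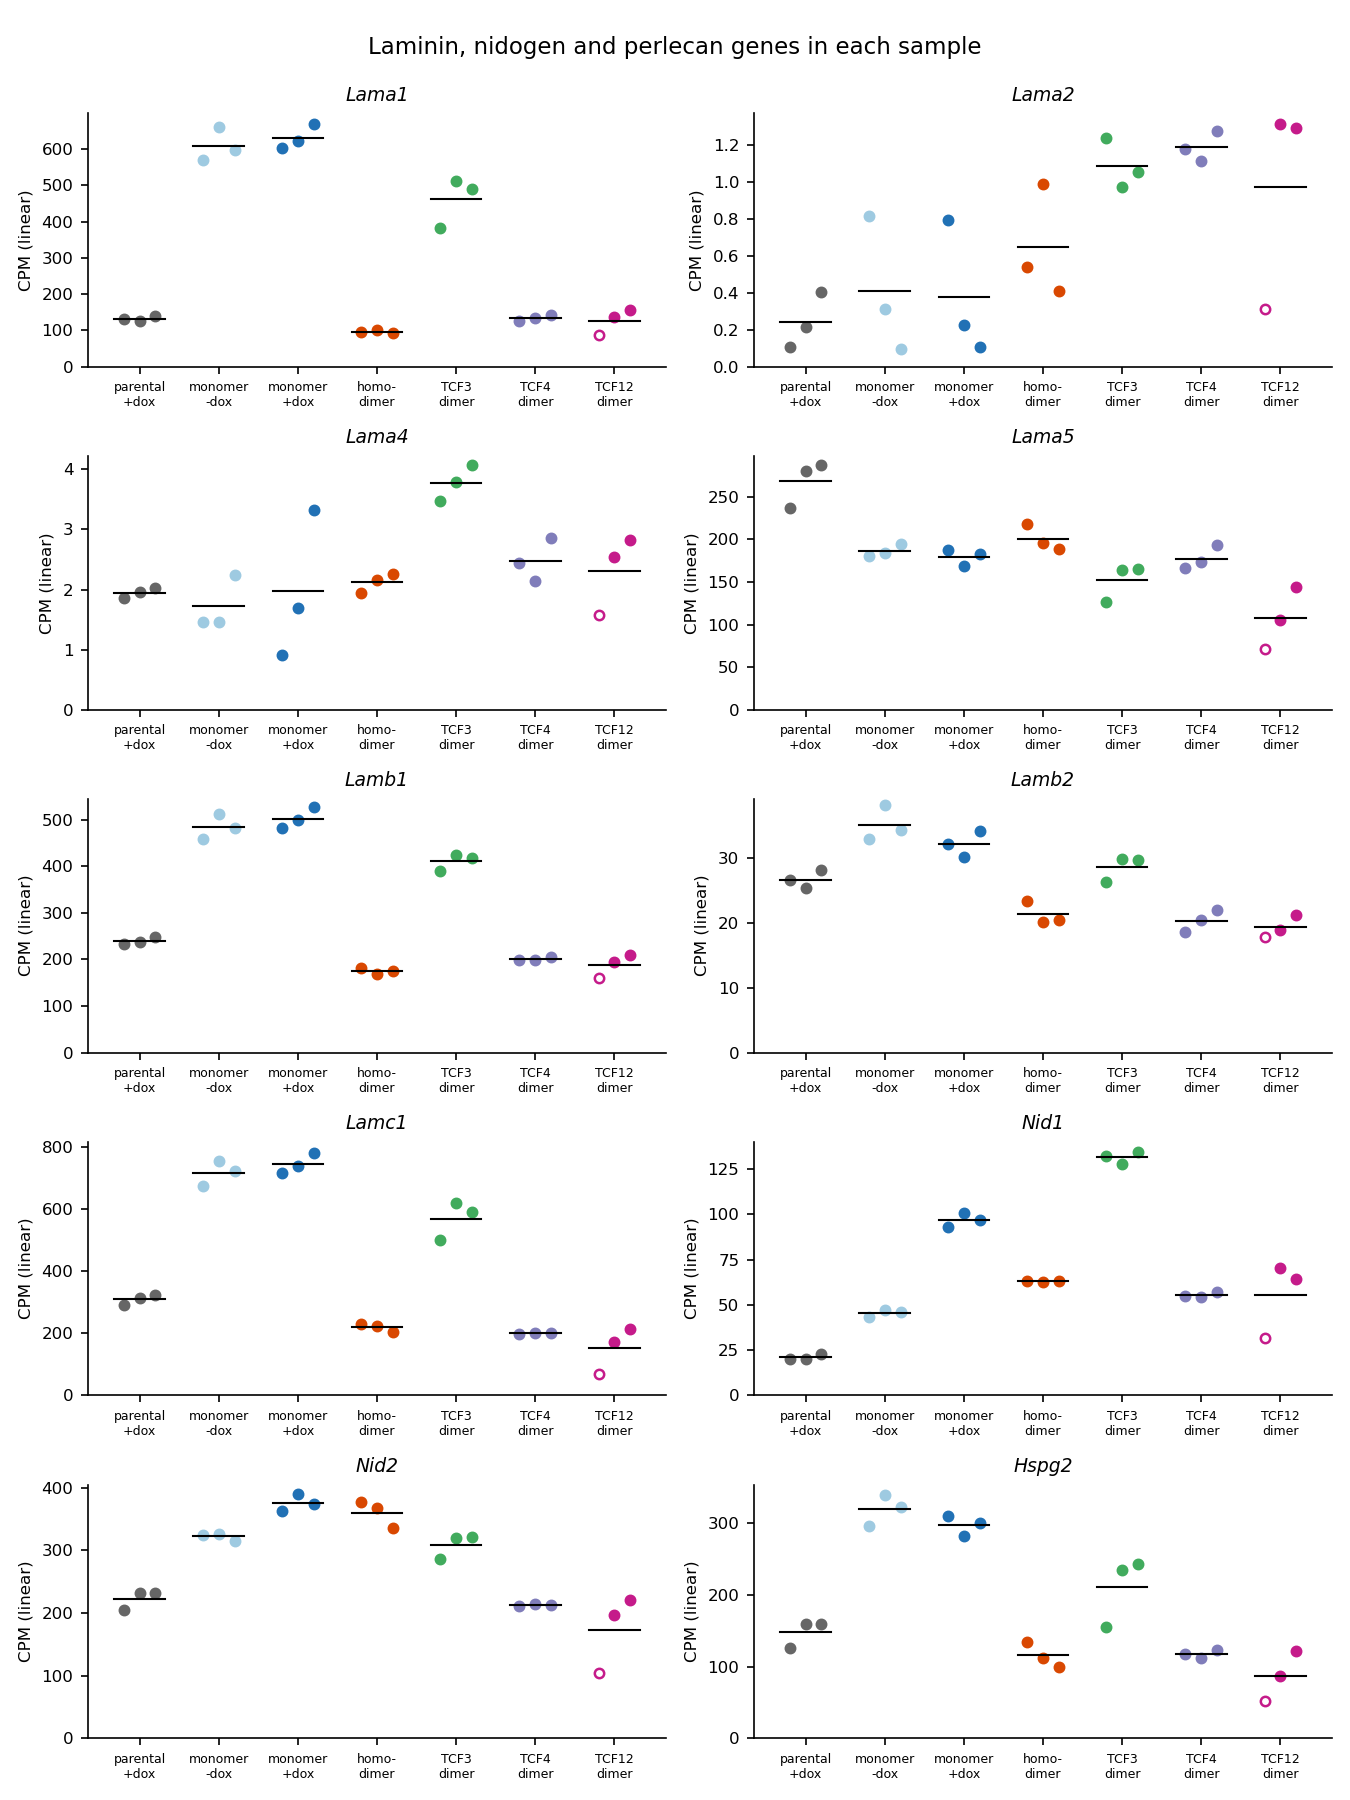
Levels of the 10 members in each of the 21 samples, in CPM on linear axes that start at 0, 1 panel per gene. Points are samples, bars are group means, and the open point is TCF12 sample 1; Lama1, Lamb1 and Lamc1 are high in both monomer groups and the TCF3-labelled libraries, while Nid1 is lowest in the parental line at 19.8 to 23.0 CPM.

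Perlecan was highest in both monomer groups. Hspg2 (chr4:137468769-137570630, plus strand) was at 126, 159.6 and 159 CPM in the parental samples, 296, 339 and 323 CPM in the uninduced monomer line and 309, 282 and 300.2 CPM in the induced one. Both monomer groups lay above every other sample, with log2 fold changes of 1.11 ± 0.21 and 1.00 ± 0.21 (edgeR adjusted p = 0.000761 and 0.00163). The TCF3-labelled libraries, at 155, 234 and 243 CPM, overlapped the parental samples through sample 1, and their difference of 0.51 ± 0.21 did not pass (edgeR adjusted p = 0.0768). It passed at 0.50 once TCF12 sample 1 was left out (edgeR adjusted p = 0.000944). The TCF12-labelled libraries were lowest, at 52.7, 86.6 and 122 CPM, and fell by 0.76 on the log2 scale (edgeR adjusted p = 0.0121). Without sample 1 their difference was -0.51 (edgeR adjusted p = 0.00519). The homodimer line, at 134, 113 and 99.9 CPM, and the TCF4 dimer line, at 118, 112 and 124 CPM, did not pass with all samples, with edgeR adjusted p = 0.393 and 0.38. Both passed without TCF12 sample 1, at -0.36 and -0.33 (edgeR adjusted p = 0.037 and 0.0397).

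Lamb2, the beta 2 chain (chr9:108479736-108490530, plus strand), kept to a narrower range. It was at 26.5, 25.3 and 28.05 CPM in the parental samples, 32.9, 38.05 and 34.3 CPM in the uninduced monomer line and 32.1, 30.0 and 34.2 CPM in the induced one. It was at 26.3, 29.8 and 29.7 CPM in the TCF3-labelled libraries, which overlapped the parental line. The homodimer line (23.3, 20.02 and 20.5 CPM), the TCF4 dimer line (18.5, 20.4 and 22.0 CPM) and the TCF12-labelled libraries (17.8, 18.8 and 21.15 CPM) lay below it. The uninduced monomer line was higher by 0.40 ± 0.10 on the log2 scale (edgeR adjusted p = 0.00536). The TCF12-labelled libraries fell by 0.46 (edgeR adjusted p = 0.0018) and the TCF4 dimer line by 0.39 (edgeR adjusted p = 0.0101). The TCF4 call was lost without parental sample 3 (edgeR adjusted p = 0.0582) or TCF4 sample 1 (edgeR adjusted p = 0.0575). The homodimer difference of -0.32 ± 0.10 passed narrowly (edgeR adjusted p = 0.0444) and was lost when any 1 of 13 libraries was left out, with edgeR adjusted p up to 0.195 without homodimer sample 2.

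Markers of primitive endoderm moved with these genes. The summed level of 7 such markers (Gata4, Gata6, Sox17, Sox7, Pdgfra, Dab2 and Foxa2) was 174 to 191 CPM in the parental samples, 557 to 646 CPM in the uninduced monomer line and 515 to 562 CPM in the induced one. It was 330.0 to 381 CPM in the TCF3-labelled libraries, 109 to 125 CPM in the homodimer line, 92.6 to 98.1 CPM in the TCF4 dimer samples and 100.4 to 126 CPM in the TCF12-labelled libraries. Against the parental line, 6 of the 7 were higher in each monomer group and 0 lower. In the TCF3-labelled libraries 6 were higher and 1 lower, and the homodimer line had 7 lower. The TCF4 dimer line had 6 lower and 0 higher, and the TCF12-labelled libraries had 6 lower and 1 higher. With TCF12 sample 1 left out, the TCF4 dimer line had 6 lower and 1 higher and the other counts were the same. The defining genes were all detected: Gata6, a transcription factor that drives primitive endoderm, averaged 12.1 CPM in the parental samples, 46.0 CPM in the induced monomer samples and 4.53 CPM in the TCF4 dimer line. The 8 markers of visceral endoderm summed to 235 to 279 CPM in the parental samples, 931 to 1235 CPM in the uninduced monomer line and 93.2 to 113 CPM in the TCF12-labelled libraries, with Afp at or below 1.30 CPM in every sample. The 7 markers of parietal endoderm, the cell that lays down Reichert's membrane, summed to 117 to 140.4 CPM in the parental line, 98.9 to 115 CPM in the uninduced monomer line and 30.9 to 37.35 CPM in the homodimer line. Most of the parental sum was Fst, which averaged 101 CPM there and 11.8 CPM in the uninduced monomer line. Counted by gene, 3 of the 7 were higher than in the parental line and 1 lower in each monomer group, 4 and 1 in the TCF3-labelled libraries, and 0 and 1 in the homodimer line. Leaving out TCF12 sample 1 made this 4 and 1 in the induced monomer line and changed none of the other 3 pairs of counts. The part of these cells in the laminin levels was not tested. In these bulk samples, fewer cells of a type and less RNA per cell cannot be told apart.

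Counted over the whole set, most members were higher than in the parental line in the monomer line and in the TCF3-labelled libraries. In the uninduced monomer line 7 of the 10 passed as higher and 1 as lower, where 19.9% of the 14311 genes tested passed, 10.5% higher and 9.43% lower. In the induced monomer line 6 were higher and 1 lower (20% of all genes, 10.8% higher and 9.22% lower), and in the TCF3-labelled libraries 7 were higher and 1 lower (28.3% of all genes, 16.3% higher and 12% lower). The homodimer line had 2 higher and 2 lower (8.84% of all genes, 4.81% higher and 4.02% lower). The TCF4 dimer line had 2 higher and 3 lower (12.9%, 7.18% higher and 5.67% lower), and the TCF12-labelled libraries 2 higher and 5 lower (27%, 15.5% higher and 11.5% lower). The median log2 fold change of the members was 0.78, 0.88 and 0.83 in the first 3 groups and -0.34, -0.16 and -0.35 in the others. The median over all genes tested was between 0.00 and 0.02 in each of these comparisons. Without TCF12 sample 1, the members that passed numbered 8, 8 and 9 in the first 3 groups, and 8 in the homodimer samples, 7 in the TCF4 dimer samples and 7 in the TCF12-labelled libraries. The corresponding shares of all genes were 36.8%, 35.2%, 46.5%, 20.4%, 28.1% and 30.3%. Fitted on the 2 groups alone, the TCF12-labelled libraries had 2 members passing, and the calls for Lamb1, Lamb2, Lamc1 and Hspg2 were lost (edgeR adjusted p = 0.2, 0.0913, 0.188 and 0.212). Other libraries also moved these counts. In the homodimer line 2 members passed in the fit without parental sample 1, and in the TCF3-labelled libraries 5 passed without parental sample 1 or 2. In the TCF4 dimer line the count was 2 or 3 when any 1 of the parental or TCF4 samples was left out. For fits of 2 groups alone or without a library other than TCF12 sample 1, shares of all genes are not given here or below. Moves of the counts in those fits are therefore not read as particular to the members. The 6 comparisons share the parental samples.

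Lama5, the alpha 5 chain, was the member that stood lower than the parental line in all 6 groups. It lies at chr2:180176373-180225859, minus strand. It was at 238, 279.9 and 287 CPM in the parental samples, above the 18 samples of the other lines. The homodimer line had 218, 195 and 189 CPM, the uninduced monomer line 181, 185 and 195 CPM and the induced one 188, 169 and 183 CPM. The TCF4 dimer line had 166, 173 and 193 CPM, the TCF3-labelled libraries 127, 164 and 165 CPM and the TCF12-labelled libraries 71.5, 106 and 144 CPM. The first 4 of these groups overlapped their neighbours in the order, and TCF12 sample 1 had the lowest value of all. Lama5 fell by 1.32 on the log2 scale in the TCF12-labelled libraries (SE 0.17, edgeR adjusted p = 9.59e-06) and by 0.82 in the TCF3-labelled libraries (SE 0.17, edgeR adjusted p = 0.000861). Without TCF12 sample 1, Lama5 was at -1.10 and -0.83 in these groups (edgeR adjusted p = 5.22e-10 and 5.08e-09). It fell by 0.52, 0.58 and 0.59 in the uninduced monomer, induced monomer and TCF4 dimer lines (edgeR adjusted p = 0.0305, 0.0169 and 0.0204). These 3 calls each were lost without parental sample 2 (edgeR adjusted p = 0.0878, 0.0531 and 0.0729) and without parental sample 3 (edgeR adjusted p = 0.101, 0.0624 and 0.0841). The uninduced monomer call was also lost without any 1 of its own 3 samples (edgeR adjusted p = 0.0937, 0.086 and 0.0544). The induced monomer call was also lost without monomer sample 2 (edgeR adjusted p = 0.0652), and the TCF4 call without TCF4 sample 1 or 2 (edgeR adjusted p = 0.0817 and 0.0695). The homodimer difference of -0.42 ± 0.16 passed only without TCF12 sample 1 (edgeR adjusted p = 0.141 with it and 0.00081 without).

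The balance between the alpha chains differed between the lines. On the scale of CPM per kb of the longest transcript, which allows levels of different genes to be compared, Lama1 made up 36.8% ± 2.26 (SD, n = 3) of the 4 alpha chains in the parental line and Lama5 62.3% ± 2.26. In the uninduced monomer line Lama1 made up 79.2% ± 1.38, in the induced one 80.4% ± 1.12 and in the TCF3-labelled libraries 77.5% ± 0.435. Lama5 was left with 20.4% ± 1.30, 19.2% ± 1.24 and 21.3% ± 0.352. The homodimer line overlapped the parental one, with Lama1 at 35.85% ± 1.89 and Lama5 at 62.7% ± 2.08. The TCF4 dimer line had 46.55% ± 0.684 Lama1, and the TCF12-labelled libraries 57.6% ± 2.18. In the latter the Lama1 level itself averaged 127 ± 36.2 CPM, against 132 ± 6.34 CPM in the parental samples, so the shift in share came with the lower Lama5 level. TCF12 sample 1 did not stand apart in this ratio, and without it the share was 57.4% ± 3.05 (n = 2). Over the 9 samples of the E-protein dimer lines the Lama1 share was 24.69 percentage points above that of the homodimer line, 60.53% against 35.85%, with every one of the 9 above the 3. An exact two-sided permutation test over samples gave p = 0.00909, the smallest that 9 against 3 samples allow. But the 9 samples come from 3 lines and the 3 homodimer samples from 1 line. The test takes samples and not lines as its units, so it does not measure a difference between kinds of dimer. Lama2 and Lama4 made up the small remainder.

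The beta chains shifted less. Lamb1 held 89.7% ± 0.337 of the per-kb beta level in the parental line, 93.1% ± 0.1465 in the uninduced monomer line and 90.4% ± 0.646 in the TCF12-labelled libraries, with Lamb2 as the rest. Each trimer takes 1 chain of each kind, so the chains can be set against Lamc1. The summed alpha chains stood at 0.929 ± 0.01945 of the Lamc1 level per kb in the parental line, 0.858 ± 0.00968 in the uninduced monomer line and 0.835 ± 0.0377 in the TCF3-labelled libraries. Lamb1 stood at 1.02 ± 0.02835, 0.8915 ± 0.00996 and 0.957 ± 0.0629 in the same groups. In the TCF4 dimer line both ratios were above 1, at 1.15 ± 0.0801 for the alpha chains and 1.32 ± 0.0239 for Lamb1. The TCF12-labelled libraries had 1.29 ± 0.378 and 1.95 ± 0.963, with sample 1 carrying the highest Lamb1 ratio, 3.06. Whether a Lamb1 ratio lies above 1 depends on the length used, as does the Lamb1 share of the beta chains. The longest Lamb1 transcript has 5784 bases and all its exons together 9917, against 7622 and 8272 for Lamc1. Neither the beta shares nor the ratios to Lamc1 were computed with the second kind of length.

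**Figure D2:**
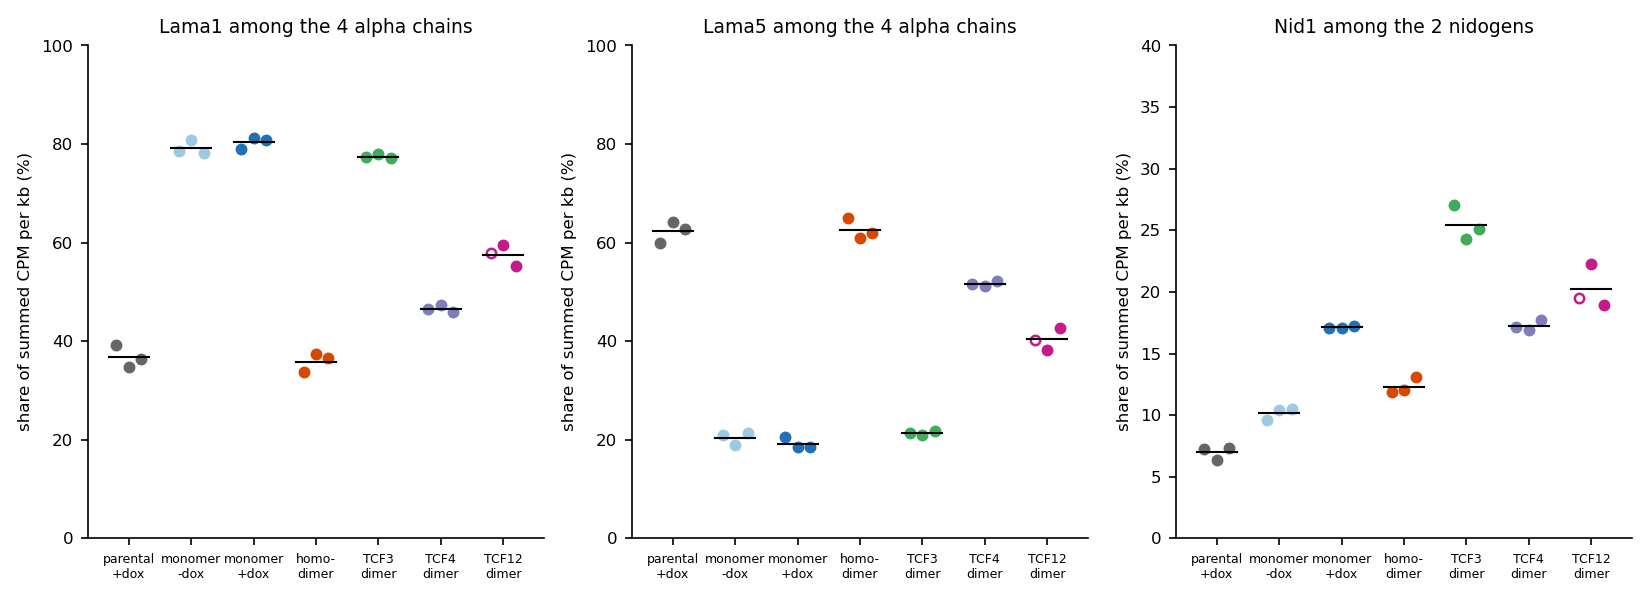
Shares of chains on the scale of CPM per kb, in percent, for each sample: Lama1 and Lama5 as shares of the 4 alpha chains and Nid1 as a share of the nidogens. Points are samples, the open point is TCF12 sample 1 and bars are group means; the Lama1 share is near 80% in both monomer groups, with means of 79.2% and 80.4%, against 36.8% in the parental line.

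Nid1 was the member that rose when TWIST1 monomer was induced in its own line. Nidogen-1 is the rod-shaped linker between laminin and collagen IV, and its gene lies at chr13:13437551-13512269, plus strand. It was at 43.3, 47.4 and 46.3 CPM without doxycycline and 93.2, 101 and 96.9 CPM with it, so the groups did not overlap, and the means differed 2.12-fold. The log2 fold change was 1.08 ± 0.17 (edgeR adjusted p = 0.00101), and 1 of the 10 members passed in this comparison, where 2% of all genes tested did, 1.52% higher and 0.475% lower. The call held in all 29 alternative fits with the same control, with edgeR adjusted p of at most 0.00908. Nid2 was the only other member whose samples did not overlap between the 2 states. It was at 325, 327 and 316 CPM without and 363, 391 and 374 CPM with doxycycline, and its difference of 0.22 ± 0.16 did not pass with all samples (edgeR adjusted p = 0.847). It passed at 0.22 without TCF12 sample 1 (edgeR adjusted p = 0.0152), so that 2 members passed, with 6.17% of all genes. Lama1, Lamb1, Lamc1 and Hspg2 gave 0.05 ± 0.15, 0.05 ± 0.08, 0.05 ± 0.23 and -0.11 ± 0.21 in the same comparison, and none of them passed with or without that sample.

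Nid1 was also higher than in the parental line in every other line. The parental samples had 20.2, 19.8 and 23.0 CPM, below the 18 other samples. The TCF3-labelled libraries had the highest level, at 133, 128 and 134 CPM, above both monomer groups. The homodimer line had 63.5, 62.7 and 63.3 CPM, the TCF4 dimer line 54.8, 54.6 and 57.2 CPM and the TCF12-labelled libraries 31.5, 70.2 and 64.3 CPM. The TCF3-labelled libraries lay above the induced monomer line, that above the homodimer line and that above the TCF4 dimer line, with no overlap. TCF12 samples 2 and 3 lay above the homodimer samples, and sample 1 lay below those of the uninduced monomer line. Relative to the parental samples, the log2 fold changes were 2.65 ± 0.19 in the TCF3-labelled libraries (edgeR adjusted p = 3.18e-09), 2.21 ± 0.18 in the induced monomer samples (edgeR adjusted p = 5.26e-08) and 1.59 ± 0.18 in the homodimer line (edgeR adjusted p = 6.34e-06). They were 1.40 ± 0.18 in the TCF4 dimer line (edgeR adjusted p = 2.12e-05), 1.40 ± 0.18 in the TCF12-labelled libraries (edgeR adjusted p = 1.34e-05) and 1.12 ± 0.19 in the uninduced monomer line (edgeR adjusted p = 0.000216). Each of these 6 calls held in all 29 alternative fits with the same control. The monomer line without doxycycline thus already differed from the parental line, which had been given the drug. When the uninduced monomer line was taken as the control, Nid1 was 1.53 higher on the log2 scale in the TCF3-labelled libraries (edgeR adjusted p = 2.04e-06), and the differences of 0.47, 0.28 and 0.28 in the homodimer line, the TCF4 dimer line and the TCF12-labelled libraries did not pass (edgeR adjusted p = 0.0644, 0.242 and 0.217). They passed without TCF12 sample 1, at 0.47, 0.28 and 0.56 (edgeR adjusted p = 2.65e-07, 0.000251 and 2.64e-08). The uninduced monomer line is a control of another line for these 3 groups.

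Nid1 and Lamc1, which encodes the chain that nidogens bind, did not move together. Per kb of transcript, Nid1 stood at 0.0849 ± 0.00532 (SD, n = 3) of the Lamc1 level in the parental samples and 0.0798 ± 0.0009305 in the uninduced monomer line, with overlapping ranges. The ratio was 0.163 ± 0.00761 in the induced monomer samples and 0.292 ± 0.0367 in the TCF3-labelled libraries. It was 0.362 ± 0.0233 in the homodimer samples and 0.349 ± 0.00961 in the TCF4 dimer line. The TCF12-labelled libraries had 0.4875 ± 0.0980. In the homodimer, TCF4 and TCF12 groups a higher Nid1 thus stood beside a lower Lamc1. Among the nidogens, Nid1 made up 7.01% ± 0.537 in the parental line, 10.2% ± 0.475 in the uninduced monomer line and 17.1% ± 0.0735 in the induced one. It made up 25.5% ± 1.43 in the TCF3-labelled libraries, so Nid2 remained the more abundant nidogen per kb in all 7 groups.

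**Figure D3:**
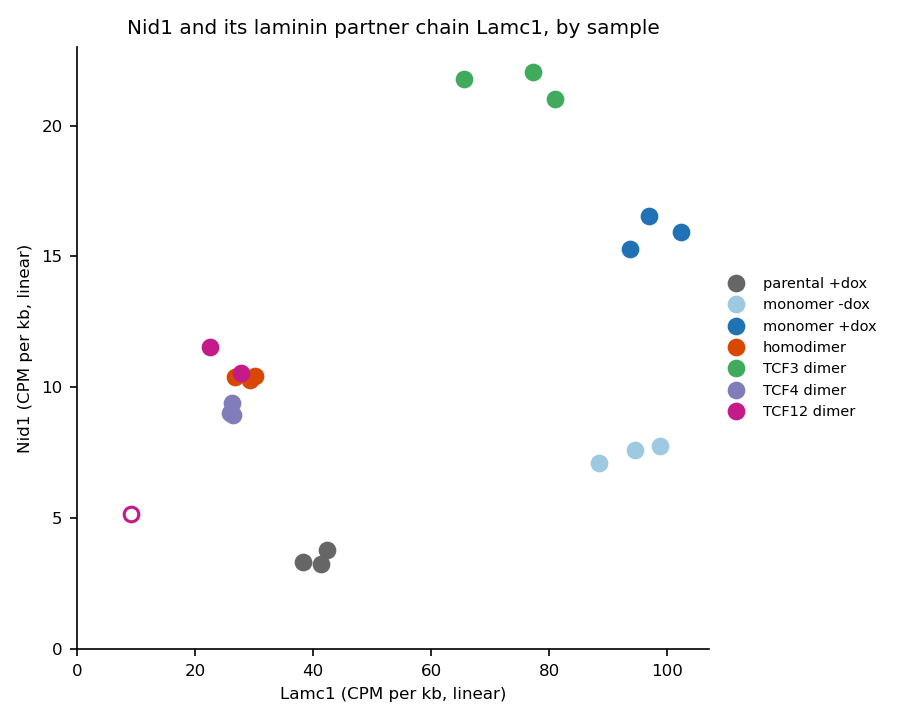
Nid1 against Lamc1 in each of the 21 samples, both in CPM per kb of the longest transcript on linear axes, coloured by group, with TCF12 sample 1 as the open point. Both monomer groups share the Lamc1 range while the induced samples lie higher on the Nid1 axis; the homodimer, TCF4 and TCF12 groups lie left of the parental line and above it.

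Markers of endothelial and blood-forming cells were higher where Nid1 was higher in some comparisons and not in others. The summed level of 8 such markers was 27.1 to 30.1 CPM in the parental samples, 32.9 to 34.6 CPM in the uninduced monomer line and 103 to 105 CPM in the induced one. It was 132 to 139.8 CPM in the homodimer line, 163 to 207 CPM in the TCF3-labelled libraries, 82.8 to 91.0 CPM in the TCF4 dimer samples and 165 to 203 CPM in the TCF12-labelled libraries. The sums of the parental and uninduced monomer lines lay close together, without overlap, while Nid1 passed between them. The sum was higher in the homodimer line and the TCF12-labelled libraries than in the induced monomer line, where Nid1 had a higher mean. Cd34, a surface protein of blood-forming and vessel cells, averaged 5.13 CPM in the parental samples and 5.86 CPM in the uninduced monomer line. In the induced one it averaged 75.4 CPM and made up most of the sum. Of the 7 markers tested, Cd34 alone passed on induction of the monomer. Pecam1, a defining marker of endothelium, averaged 7.805 CPM without and 8.66 CPM with doxycycline, and Emcn was at or below 3 counts in every sample. Against the parental line, 6 of the 7 were higher in the TCF3-labelled libraries and 1 in the homodimer line. Of all genes, 28.3% and 8.84% passed there. The marker counts were the same without TCF12 sample 1, where 46.5% and 20.4% of all genes passed. In that fit 3 markers were higher in the TCF4 dimer line, and 5 were higher and 1 lower in the TCF12-labelled libraries (28.1% and 30.3% of all genes). The part of such cells in the Nid1 level was not tested.

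Nid2, which encodes the second nidogen, was higher than the parental line in 4 of the 6 groups. Its gene lies at chr14:19751265-19811787, plus strand. It was at 206, 232 and 232 CPM in the parental samples, and the monomer values are given above. The homodimer line had 378, 368 and 336 CPM and the TCF3-labelled libraries 286, 319.8 and 321 CPM, and neither these nor the monomer samples overlapped the parental ones. The TCF4 dimer line had 212, 215 and 212 CPM and the TCF12-labelled libraries 104, 196 and 221 CPM, and both overlapped them. The log2 fold change was 0.75 ± 0.16 in the induced monomer line (edgeR adjusted p = 0.00232), 0.69 ± 0.16 in the homodimer line (edgeR adjusted p = 0.0092), 0.53 ± 0.16 in the uninduced monomer line (edgeR adjusted p = 0.0264) and 0.47 ± 0.16 in the TCF3-labelled libraries (edgeR adjusted p = 0.0376). The homodimer call was lost without parental sample 1 (edgeR adjusted p = 0.052). The uninduced monomer call was lost without any 1 of the 6 samples compared (edgeR adjusted p = 0.0554 to 0.104), and the TCF3 call without any 1 of 13 libraries, with edgeR adjusted p up to 0.131 without parental sample 1. Nid2 was higher in the homodimer line than in the E-protein dimer lines. The 3 homodimer samples lay above the 9 samples of those lines, and the heterodimers were lower by 0.68 on the log2 scale (SE 0.13, edgeR adjusted p = 0.000997). Per kb, Nid2 stood at 2.57 ± 0.00661 of the Lamc1 level in the homodimer line, against 1.125 ± 0.0268 in the parental samples and 0.705 ± 0.0413 in the uninduced monomer line. Exons of Nid2 share 437 bases with Rtraf, a gene on the opposite strand listed in the tables as 2700060E02Rik with a mean count of 2149, and exons of Nid1 share 143 bases with the antisense gene Gm48682. Whether the counting used strand is not given in the sources used here, so the levels of both nidogen genes are uncertain to that extent.

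The remaining alpha chains were near the limit of detection. Lama2, the alpha 2 chain of muscle laminin (chr10:26980036-27619758, minus strand), had 1, 2 and 4 counts in the parental samples and 5, 3 and 1 in the uninduced monomer line. The induced monomer line had 7, 2 and 1 counts and the homodimer line 5, 11 and 4. The E-protein dimer lines had 15, 11 and 13 in the TCF3-labelled libraries, 15, 13 and 21 in the TCF4 dimer samples and 3, 16 and 16 in the TCF12-labelled libraries. The ratio of summed counts to the parental line, scaled by library size, was 4.42 (95% interval 1.95 to 11.7) in the TCF3-labelled libraries, an exact interval that covers counting error only. It was 4.85 (95% interval 2.19 to 12.7) in the TCF4 dimer line, 4.15 (95% interval 1.82 to 11.1) in the TCF12-labelled libraries and 2.685 (95% interval 1.09 to 7.52) in the homodimer line. In the induced monomer line it was 1.50 (95% interval 0.515 to 4.64). The heterodimers did not pass against the homodimer line, with overlapping groups (edgeR adjusted p = 0.319). In the fit, Lama2 passed in the TCF3 and TCF4 groups and the TCF12-labelled libraries (edgeR adjusted p = 0.0178, 0.0198 and 0.0291). All 3 calls were lost without parental sample 1 (edgeR adjusted p = 0.0809, 0.0944 and 0.102) or parental sample 2 (edgeR adjusted p = 0.0621, 0.0779 and 0.0886). They were also lost without TCF3 sample 1, TCF4 sample 3, and TCF12 sample 2 or 3 (edgeR adjusted p = 0.0535, 0.0605, 0.0778 and 0.0604). Exons of Lama2 share 631 bases with the antisense gene Gm48084.

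Lama4, the alpha 4 chain of vessel laminin (chr10:38965515-39110188, plus strand), was at 1.85, 1.95 and 2.02 CPM in the parental samples and at 3.47, 3.80 and 4.07 CPM in the TCF3-labelled libraries, its highest group. The other 15 samples lay between 0.910 and 3.33 CPM. They overlapped the parental samples in each group but the TCF4 dimer line, which had 2.44, 2.14 and 2.86 CPM and did not pass (edgeR adjusted p = 0.537). The TCF3-labelled libraries were higher than the parental line by 0.96 ± 0.29 on the log2 scale (edgeR adjusted p = 0.0173). The call was lost without parental sample 1 or 2 or TCF3 sample 3 (edgeR adjusted p = 0.0577, 0.0536 and 0.0525).

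Between the induced lines, most members were lower in the homodimer line, the TCF4 dimer line and the TCF12-labelled libraries than in the monomer line. Against the induced monomer line, the homodimer line had 0 members higher and 6 lower, where 18.5% of all genes passed, 9.15% higher and 9.31% lower. Lama1 fell by 2.72, Lamc1 by 1.76, Lamb1 by 1.52 and Hspg2 by 1.36 on the log2 scale (edgeR adjusted p = 3.4e-10, 1.88e-05, 1.44e-10 and 0.000111). Nid1 was lower by 0.62 (edgeR adjusted p = 0.0147), a call lost without monomer sample 2 or homodimer sample 2 (edgeR adjusted p = 0.0542 and 0.0538). The TCF4 dimer line had 1 member higher and 7 lower than the induced monomer line (27.4% of all genes, 14.5% higher and 13% lower), with Lama1 at -2.24 ± 0.15 (edgeR adjusted p = 2.35e-09). The TCF12-labelled libraries had 0 higher and 8 lower (33.5% of all genes, 18.1% higher and 15.5% lower), with Lama1 at -2.31 ± 0.15 (edgeR adjusted p = 1.47e-09). Without TCF12 sample 1 the members passing in these 3 comparisons numbered 6, 8 and 9 (33.3%, 45.5% and 42.4% of all genes). The TCF3-labelled libraries had 1 member higher and 2 lower than the monomer line (22.1% of all genes, 12.7% higher and 9.36% lower): Lama4 at 0.92 ± 0.29, Lama1 at -0.45 ± 0.15 and Lamb1 at -0.29 ± 0.08 (edgeR adjusted p = 0.0274, 0.0319 and 0.0132). Leaving out 1 library ended the Lama1 call in 6 cases, the Lamb1 call in 2 and the Lama4 call in 4. The number of members passing was 9 without TCF12 sample 1 (40.9% of all genes), where Nid1 was 0.44 higher (edgeR adjusted p = 5.32e-08), and 5 without TCF12 sample 3. It was 1 without monomer sample 2 or 3 or without TCF3 sample 1 or 3.

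Among the dimers, the TCF3-labelled libraries were higher than the TCF4 dimer line in 7 members and lower in 0 (19.7% of all genes, 11.8% higher and 7.9% lower), and higher than the TCF12-labelled libraries in 8 and lower in 0 (18.8%, 9.71% higher and 9.06% lower). These became 8 higher and 1 lower (40.4%) and 7 higher and 0 lower (25%) without TCF12 sample 1. Against the TCF4 dimer line, Lama1 differed by 1.79 ± 0.15, Lamc1 by 1.51 ± 0.23 and Nid1 by 1.24 ± 0.17 on the log2 scale (edgeR adjusted p = 9.78e-08, 0.000113 and 3.5e-05). Fitted on the 2 groups alone, 2 members passed between the TCF3-labelled and TCF12-labelled libraries. The TCF12-labelled libraries and the TCF4 dimer line differed in Lama5 alone, at -0.73 ± 0.17 (edgeR adjusted p = 0.0252), 1 of 10 members where 3.24% of all genes passed, 2.07% higher and 1.17% lower. That call was lost without TCF4 sample 2 or 3 (edgeR adjusted p = 0.074 and 0.13). The number of members passing was then 0, and it was 2 without TCF12 sample 1 (4.76% of all genes) and 4 without TCF12 sample 3. With the 3 heterodimer groups averaged against the homodimer line, 2 members were higher and 2 lower (14% of all genes, 7.99% higher and 6.04% lower). Lama1 and Lamb1 were higher by 1.05 ± 0.13 and 0.51 ± 0.07 (edgeR adjusted p = 1.31e-05 and 3.17e-05), with overlap through TCF12 sample 1 alone, and without it by 1.11 and 0.54. Within this average the TCF3-labelled libraries stood apart from the other 2 groups, as the values above show. Lama5 was lower by 0.49 (edgeR adjusted p = 0.0142), a call lost without homodimer sample 1 (edgeR adjusted p = 0.0983). Without TCF12 sample 1, 6 members passed (28.9% of all genes), Nid1 and Lamc1 being higher by 0.32 and 0.34 on the log2 scale (edgeR adjusted p = 5e-06 and 3.48e-05).

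**Figure D4:**
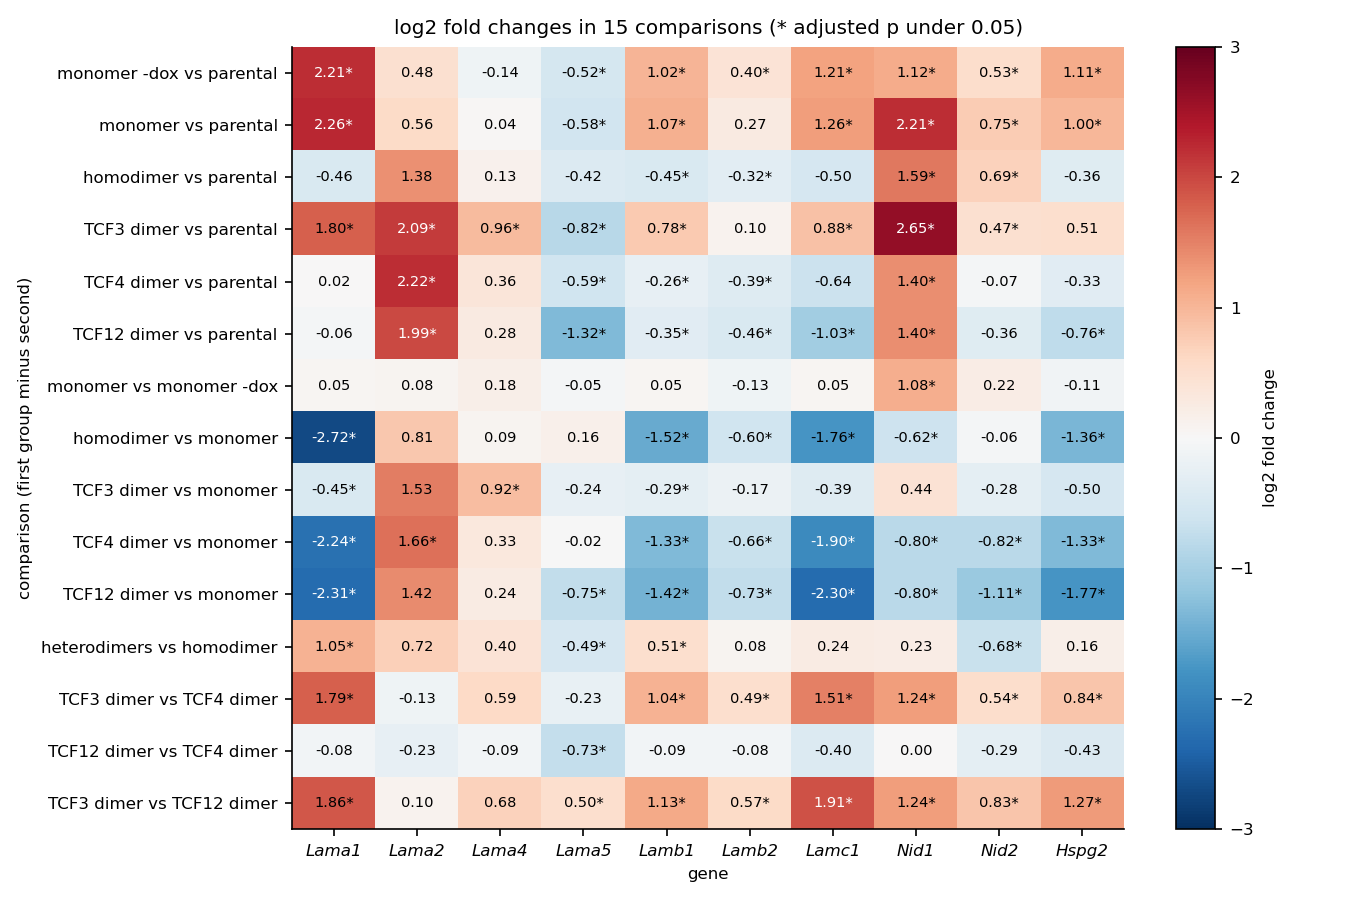
Log2 fold changes of the 10 members in the 15 comparisons from the fit of all 21 samples, as a heat map on a scale centred at 0, with an asterisk where the edgeR adjusted p is under 0.05. Each row is a comparison and each column a gene; the rows for both monomer groups and the TCF3-labelled libraries against the parental line hold the higher values of Lama1, at 2.21, 2.26 and 1.80, while Nid1 is higher in all 6 rows against the parental line.

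The uninduced monomer line gives another view of the same levels. Taken as the control in the 20 samples without TCF12 sample 1, a choice made after seeing the data, the TCF3-labelled libraries had lower Lama1, Lamb1, Lamc1 and Hspg2, at -0.41, -0.24, -0.34 and -0.61 on the log2 scale (edgeR adjusted p = 3.06e-05, 0.000161, 0.000115 and 6.45e-05). With all 21 samples these 4 differences were -0.40, -0.24, -0.33 and -0.60 (edgeR adjusted p = 0.046, 0.0313, 0.303 and 0.0349). Lama1, Lamb1 and Lamc1 in the TCF3-labelled libraries thus lay between the 2 controls, above the parental line and below the uninduced monomer line. Nid1 kept its direction against both, at 1.52 in the 20 samples (edgeR adjusted p = 1.8e-19).

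Of the laminin chains outside the set, Lama3 and Lamb3 encode the alpha 3 and beta 3 chains of epithelial laminins, and Lamc3 the gamma 3 chain. Their summed level was 1.15 to 3.60 CPM across the 21 samples, and 2 of the 3 had enough counts to be tested. In the TCF12-labelled libraries both were lower than in the parental line, Lama3 by 1.24 ± 0.42 and Lamb3 by 1.28 ± 0.43 on the log2 scale (edgeR adjusted p = 0.0381 and 0.0341), and 1 of the 2 passed as lower without sample 1. Neither passed against the parental line in the other 5 groups with all samples.

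Among the chains of collagen IV, the network that nidogens tie to laminin, Col4a1 and Col4a2 were high in the same groups as the laminin-111 chains. Of the 6 chains 4 were tested. In the uninduced monomer line 2 were higher and 2 lower than in the parental line, and in the induced one and in the TCF3-labelled libraries 2 were higher and 1 lower. Without TCF12 sample 1 these counts were 2 and 2 in all 3 groups. Col4a1 and Col4a2 were higher by 1.79 ± 0.11 and 1.98 ± 0.09 on the log2 scale in the uninduced monomer line (edgeR adjusted p = 9.73e-10 and 3.97e-11) and by 1.30 ± 0.10 and 1.46 ± 0.09 in the TCF3-labelled libraries (edgeR adjusted p = 2.05e-08 and 3.89e-10). In the homodimer line they were at -0.50 ± 0.10 and -0.66 ± 0.09 (edgeR adjusted p = 0.00322 and 3.27e-05), and both were also lower in the TCF4 and TCF12 groups. Col4a5 and Col4a6 went the other way in the uninduced monomer line, at -1.45 ± 0.32 and -1.94 ± 0.57 (edgeR adjusted p = 0.00263 and 0.0197), on parental means of 3.67 and 2.28 CPM. The summed collagen IV level was 361 to 381 CPM in the parental samples, 1258 to 1422 CPM in the uninduced monomer line and 233 to 268 CPM in the homodimer line. The summed primitive endoderm markers were likewise above the parental range in the uninduced monomer line and below it in the homodimer line, and their part in the collagen IV level was not tested.

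Genes for the folding and export of matrix proteins were also higher there. Of 12 such genes, 9 were higher and 0 lower than in the parental line in the uninduced monomer line, 8 and 0 in the induced one and 9 and 0 in the TCF3-labelled libraries. The homodimer line had 2 higher and 1 lower, the TCF4 dimer line 3 and 1, and the TCF12-labelled libraries 4 and 2. The counts without TCF12 sample 1 were 10 and 0, 10 and 1, 9 and 0, 2 and 4, 3 and 3, and 4 and 3. P4ha1, a prolyl hydroxylase subunit, was higher by 1.37 ± 0.09 in the uninduced monomer line and 1.43 ± 0.09 in the TCF3-labelled libraries (edgeR adjusted p = 2.82e-09 and 7.36e-10). Serpinh1, the collagen chaperone, was higher by 1.14 ± 0.10 and 0.78 ± 0.10 (edgeR adjusted p = 8.98e-08 and 5.59e-06). Creb3l2, a transcription factor of the secretory pathway, was higher in all 6 groups, from 0.72 ± 0.17 in the homodimer line to 1.96 ± 0.16 in the TCF3-labelled libraries (edgeR adjusted p = 0.01 and 3.52e-08).

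Other components of the basement membrane moved in both directions. Of 16 tested, 4 were higher and 6 lower than in the parental line in the uninduced monomer line, 4 and 5 in the induced one, 2 and 5 in the homodimer line, 8 and 4 in the TCF3-labelled libraries, 3 and 5 in the TCF4 dimer samples and 4 and 7 in the TCF12-labelled libraries. Without TCF12 sample 1 these counts were 6 and 7, 6 and 5, 4 and 6, 8 and 4, 5 and 8, and 5 and 7. Tinagl1, which encodes a laminin-binding glycoprotein, was higher in the uninduced monomer line, at 1.86 ± 0.22, and lower in the homodimer line, at -1.12 ± 0.28 (edgeR adjusted p = 4.93e-06 and 0.014). Fras1 and Frem2, of the complex that holds epithelium to dermis, were lower in the uninduced monomer line, at -1.66 ± 0.23 and -1.52 ± 0.27 (edgeR adjusted p = 2.61e-05 and 0.000407). Frem1 and Fbln2, the latter a binding partner of nidogen, were higher in the TCF3-labelled libraries, at 2.45 ± 0.29 and 2.05 ± 0.22 (edgeR adjusted p = 2.97e-06 and 6.95e-07). Markers of mesenchyme summed to 75.6 to 93.0 CPM in those libraries against 38.0 to 46.0 CPM in the parental samples. The sum was 38.15 to 43.5 CPM in the homodimer line, 44.3 to 49.8 CPM in the TCF4 dimer line and 57.1 to 59.1 CPM in the TCF12-labelled libraries. The part of these markers was not tested. Fbln2 was also higher in the homodimer line, at 1.18 ± 0.23 (edgeR adjusted p = 0.0017). On induction of the monomer 1 of the 16 passed, Fbln1, another fibulin, at 0.50 ± 0.10 (edgeR adjusted p = 0.00791).

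The receptors for laminin that passed did so in both directions. Of 7 tested, 1 was higher and 0 lower than in the parental line in the uninduced monomer line, 1 and 1 in the induced one, 1 and 0 in the homodimer line, 0 and 1 in the TCF3-labelled libraries, 0 and 0 in the TCF4 dimer samples and 0 and 1 in the TCF12-labelled libraries. The shares of all genes in these 6 comparisons ran from 8.84% to 28.3%. Leaving out TCF12 sample 1, the receptor counts were 1 and 2, 1 and 2, 2 and 0, 0 and 1, 0 and 1, and 1 and 3. Itgb4, the integrin beta 4 subunit, was the higher gene in the uninduced monomer line at 0.92 ± 0.23 (edgeR adjusted p = 0.00707). Bcam, a receptor for laminin alpha 5, was higher in the homodimer line at 0.52 ± 0.13 and lower in the TCF3-labelled libraries at -0.45 ± 0.13 (edgeR adjusted p = 0.0134 and 0.0148). The summed receptor level was 717 to 758 CPM in the parental samples and 654 to 686 CPM in the uninduced monomer line. In the TCF12-labelled libraries it was 501 CPM in sample 1 and 737 and 769 CPM in samples 2 and 3. Of 11 genes that build the laminin-binding glycan of dystroglycan, 2 were higher in the TCF3-labelled libraries, 1 was lower in the induced monomer samples and 1 in the homodimer line. Without TCF12 sample 1, at most 3 of the 11 passed in any of the 6 groups.

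**Figure D5:**
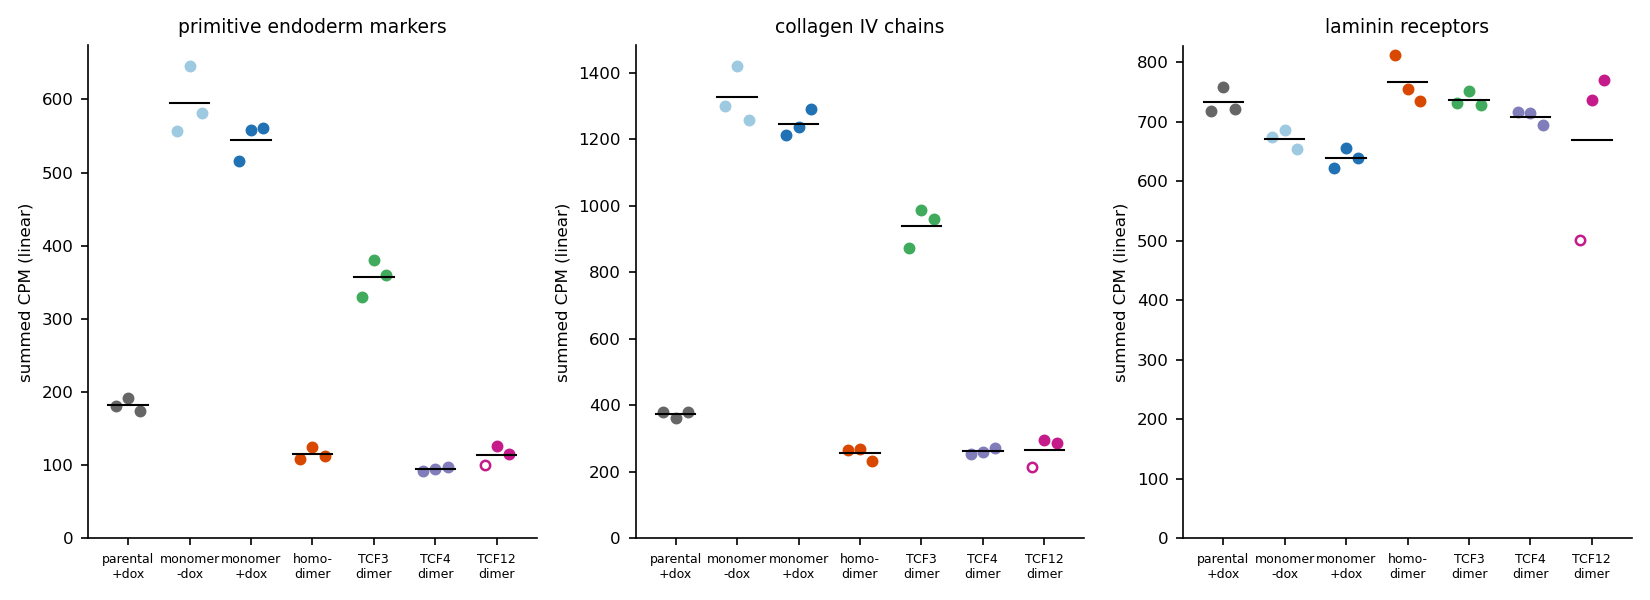
Summed CPM of primitive endoderm markers, collagen IV chains and laminin receptors in each of the 21 samples, on linear axes that start at 0, with bars at the group means and TCF12 sample 1 as the open point. The first 2 sums are highest in both monomer groups, from 1258 CPM of collagen IV in the lowest uninduced sample, while the receptor sum runs from 501 CPM in TCF12 sample 1 to 812 CPM in the homodimer line.

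Across the 20 samples without TCF12 sample 1, the members formed a close group and several that stood aside. On log2(CPM + 0.5), Pearson's r was 0.988 between Lama1 and Lamb1, 0.983 between Lamb1 and Lamc1 and 0.967 between Lamc1 and Hspg2. Nid1 had r = 0.312 with Lamc1 and 0.460 with Lama1, and Lama5 had r = -0.701 with Nid1 and 0.028 with Lamc1. These values describe 7 groups of samples that share lines and are given without a test. Among 10596 genes outside the set with a mean of at least 5 CPM, those most like Lama1 were Bmp1 (r = 0.989), Col4a1 (r = 0.985) and Gsn (r = 0.984). Those most like Lamc1 were Nxf7 (r = 0.993), Cubn and Gata6 (both r = 0.990), and those most like Hspg2 were Tbc1d24 and Lrp2 (both r = 0.981) and Myo1c (r = 0.967). Nid2 was most like Hap1 (r = 0.954), Gcnt2 (r = 0.943) and Kat2b (r = 0.923). Lama5 had looser neighbours, Glt1d1 and Dnah8 (both r = 0.889) and Mybbp1a (r = 0.882), as did the sparse Lama4, with Prkd2 (r = 0.831), Pwwp2a (r = 0.825) and Tbc1d8 (r = 0.819).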

How the data were processed

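RNA-seq was measured in 21 samples. The authors deposited 1 table of raw counts per gene symbol for each sample, with 48321 symbols, and per the submitters' processing notes these involved FastQC, TopHat2, HTSeq and the build GRCm38 (mm10). Versions and strandedness of the counting are not given in the sources used here. Libraries were made with a TruSeq mRNA kit, per the labels' protocols.

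Groups come from genotype and treatment in the labels. Counts were fitted in edgeR 4.0.16 (limma 3.58.1, R 4.3.3) with TMM factors, 1 mean per group over all 21 samples and the filterByExpr filter (a count of 10, a total of 15), which kept 14311 genes. Each comparison used the quasi-likelihood F-test, two-sided, with p adjusted by Benjamini-Hochberg over all genes tested, and genes under 0.05 are said to pass. The SE was derived from the F statistic. CPM per kb used the longest GENCODE M21 transcript, and SDs are over 3 samples. Intervals are 95% and exact. On simulated data for the TCF3 dimer comparison, 85% of 193 genes changed 2-fold were recovered, with 14 false calls among 13836 genes. The simulation used the parental means, a single coefficient of variation of 0.12 for all genes and no outlying library. Its rates therefore need not hold for the measured data.

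All 10 members are named, with at most the 3 genes of each other list that pass with the greatest fold change and a mean of at least 1 CPM in the higher group, and the 3 genes most correlated with a member. The members and lists were chosen with earlier results of these data known, and some genes of the lists are not reported here. The alternatives were DESeq2 1.42.0, other scalings and filters, a replicate block, a transcript length offset, fits of only the groups compared, the uninduced monomer line as control, and each sample left out in turn. Use of that control in 20 samples and of exon-union lengths was chosen after seeing the data.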

Additional observations from a re-analysis of the deposited data

How the results depend on the processing

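Of the 85 passing member tests in the 15 comparisons, 51 passed in each alternative with the same control, and 34 were lost in at least 1. Of the 65 that did not pass, 30 passed in at least 1. Shares of all genes are not given for the alternative fits in this section, so changes in the counts are not read as particular to the members. The number of members passing depended on the library left out. Its range was 6 to 8, 6 to 8, 2 to 8, 5 to 9, 2 to 7 and 6 to 7 against the parental line for the uninduced monomer, monomer, homodimer, TCF3, TCF4 and TCF12 groups. It was 1 to 2 on induction of the monomer, and 5 to 6, 1 to 9, 7 to 8 and 8 to 9 for the homodimer, TCF3, TCF4 and TCF12 groups against the monomer. It was 3 to 6 for heterodimers against homodimer, 6 to 9 for TCF3 against TCF4, 0 to 4 for TCF12 against TCF4 and 7 to 9 for TCF3 against TCF12. The low end for homodimer against parental came without parental sample 1, and for TCF3 against parental without parental sample 1 or 2. Whether equal replicate numbers mark paired samples is not known. Deviations of same-numbered samples had a mean correlation of 0.0214 over 63 pairs (lowest -0.221), against -0.0102 over 126 pairs with different numbers. The deviations are taken within groups of 3, which ties these means together, so they cannot show that pairing was absent. With the replicate block, the counts in the order above were 8, 7, 5, 8, 5, 7, 1, 6, 3, 8, 8, 4, 7, 1 and 9.

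Fitted on only the groups compared, the counts moved to 8 for homodimer against parental, 2 for TCF12 against parental, 2 on induction of the monomer, 9 for TCF3 against the monomer, 0 for TCF12 against TCF4 and 2 for TCF3 against TCF12. The length offset gave 7 for homodimer against parental and 9 for TCF3 against the monomer, and library size alone gave 3 for TCF4 against parental and 1 for TCF3 against the monomer. In these cases the cause was not tested. With the uninduced monomer line as control, 1 member passed in the induced monomer line. There Hspg2 (-0.105), Col4a1 (-0.0941), Col4a2 (-0.0854), Sparc (-0.0161) and Itgb4 (-0.0269) changed sign on the log2 scale, but none of them passed. In the TCF3 group the sign changed and the value passed for 8 genes (edgeR adjusted p = 9.31e-05 to 0.046). They were Lama1 (-0.40), Lamb1 (-0.24), Lamb2 (-0.30), Hspg2 (-0.60), Col4a1 (-0.49), Col4a2 (-0.52), Serpinh1 (-0.36) and Gata6 (-0.66). The sign changed without a pass for Lamc1 (-0.33), Nid2 (-0.0629) and Pdgfra (-0.0352), with edgeR adjusted p = 0.303, 0.813 and 0.869. In the TCF4 group Lama1 went from 0.02, which did not pass, to -2.19 (edgeR adjusted p = 2.16e-09). All of these moves came with the change of control. The Lama1 share difference between heterodimers and homodimer ranged from 22.51 to 26.51 percentage points over samples left out. With exon-union lengths the Nid1 share of the nidogens fell from 10.2% to 9.536% and from 17.1% to 16.1% in the monomer line without and with doxycycline, from 12.3% to 11.6% in the homodimer line and from 17.3% to 16.3% in the TCF4 dimer line. It also fell from 7.01% to 6.56% in the parental line, from 25.5% to 24.1% in the TCF3 group and from 20.2% to 19.1% in the TCF12 group. Depth limits Lama2 and Lama4, which had few counts in each sample.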
